A study of Mus musculus with 18 samples.

Results

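A set of 7 genes of the Ly6 family, Ly6a, Ly6c1, Ly6c2, Ly6d, Ly6e, Ly6i and Ly6k, was followed in mouse plasmacytoid dendritic cells (pDCs) given the TLR7 agonist imiquimod. The 7 genes were picked by symbol from a table of raw counts for 54532 genes, and each symbol was found there once. The pDCs were grown from the bone marrow of wild-type C57BL/6 mice for 7 days with Flt3L at 80 ng/mL, and were then enriched on B220, with a purity the labels put at about 80%. The 6 groups were imiquimod and the vehicle at 6 h, imiquimod and the vehicle at 16 h, the vehicle at 0 h and untreated cells at 0 h. Imiquimod was used at 2.5 µg/mL, and the labels name Limulus amebocyte lysate as the vehicle. Each group held 3 libraries of rRNA-depleted total RNA. The labels do not say whether replicates came from separate mice or cultures, so the p-values may reflect no more than technical spread among the libraries.

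Ly6 proteins are small, folded by a set of disulfide bonds, and most are held on the outer face of the plasma membrane by a glycosylphosphatidylinositol (GPI) anchor. Immunologists use several of them as surface markers: Ly6C marks inflammatory monocytes and is carried by mouse pDCs, Ly6A is the stem cell antigen Sca-1, and Ly6D marks lymphoid progenitors on the way to B cells and pDCs. Several family genes, Ly6a and Ly6e among them, are known to respond to interferon, which pDCs make in large amounts when TLR7 is engaged.

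The libraries held 10609741 to 13447018 counts, and 14876 genes passed the expression filter and were tested. Levels are CPM, counts scaled to a common library size after TMM normalisation. Log2 fold changes, their standard errors (SE) and Benjamini-Hochberg adjusted p-values are from edgeR's quasi-likelihood fit to all 18 libraries, and a gene was called at an adjusted p under 0.05. The summed CPM of 10 pDC markers was 6798 to 7045 with imiquimod and 8238 to 8543 with the vehicle at 6 h, and 4725 to 4797 with imiquimod and 10254 to 10319 with the vehicle at 16 h. Of the 10, 4 were higher and 5 lower with imiquimod at 6 h, and none was higher and 8 were lower at 16 h. Of all tested genes 37.7% were higher and 39.2% lower at 6 h, and 39.1% higher and 38.1% lower at 16 h. None of the 10 pDC markers was at 0 in any group. In bulk RNA, fewer cells of a type and less RNA per cell cannot be told apart.

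Of the 7 genes 6 were tested, and at 6 h all 6 were higher with imiquimod than with the vehicle, against 37.7% of tested genes called higher and 39.2% called lower. At 16 h, 5 were higher and Ly6c2 was lower, against 39.1% and 38.1% of tested genes. The median log2 fold change of the 6 was 1.91 at 6 h and 1.77 at 16 h, where that of all tested genes was -0.04 and 0.00. Ly6k passed the filter only through the imiquimod libraries of 16 h, so its call there is no independent count, though the 16 h median includes it. Ly6c1 had too few counts to be tested.

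**Figure D1:**
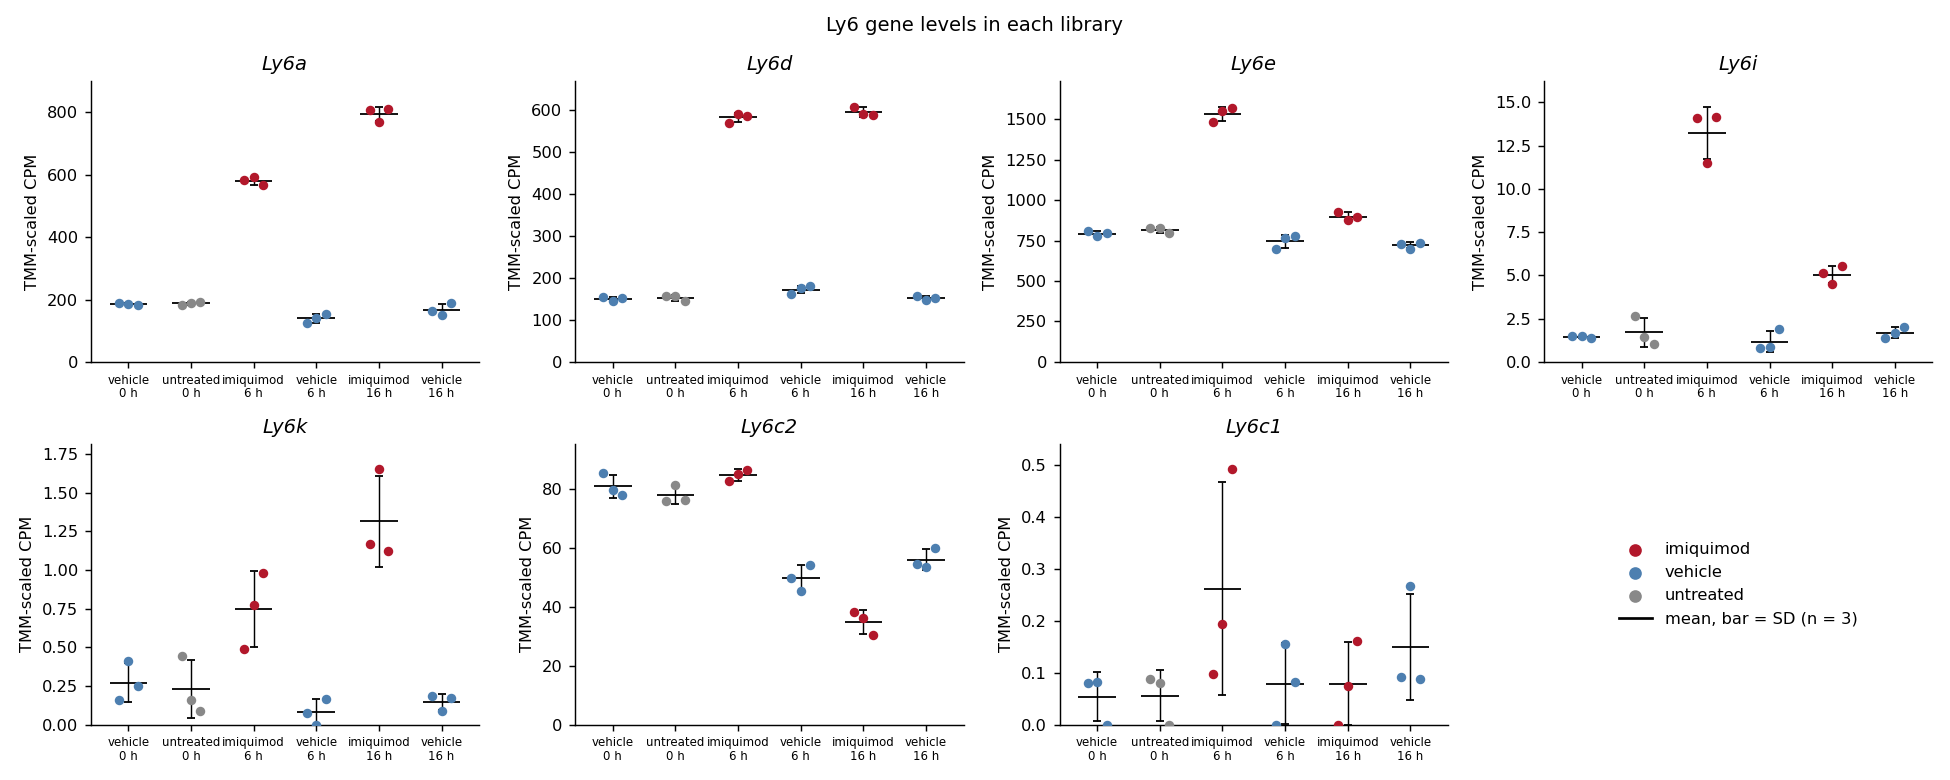
Level of each Ly6 gene in each library, in TMM-scaled CPM on linear axes that start at 0, with 3 libraries a group, a line at the mean and a bar for the SD. The imiquimod libraries stand above the vehicle libraries of the same time for Ly6a, Ly6d, Ly6e, Ly6i and Ly6k at 6 h and 16 h, whereas for Ly6c2 they stand above at 6 h and below at 16 h.

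Ly6a, which encodes Sca-1, an antigen of blood stem cells that is also found on activated lymphocytes, was higher with imiquimod at both times. It had 583, 593 and 567 CPM in the imiquimod libraries at 6 h, against 126, 141 and 153 CPM in the vehicle libraries. At 16 h it had 808, 770.1 and 811 CPM with imiquimod, against 163, 151 and 188 CPM with the vehicle. All imiquimod libraries lay above all vehicle libraries at both times, with no overlap. The log2 fold change came to 2.05 (SE 0.0672, edgeR adjusted p = 6.99e-14) at 6 h and 2.25 (SE 0.0659, edgeR adjusted p = 1.53e-14) at 16 h. From 6 h to 16 h the imiquimod cells gained further, with a log2 difference of 0.45 (SE 0.0599, edgeR adjusted p = 6.16e-06).

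The 16 h effect on Ly6a exceeded the 6 h effect by 0.20 on the log2 scale (SE 0.0936), which was not called (edgeR adjusted p = 0.0874). The difference was called in 4 alternatives: it was 0.23 with no expression filter (edgeR adjusted p = 2.89e-05), 0.53 with scaling by library totals (edgeR adjusted p = 4.36e-05), 0.29 without replicate 3 of the vehicle at 16 h (edgeR adjusted p = 7.6e-05), and 0.29 without replicate 1 of the vehicle at 6 h (edgeR adjusted p = 0.0032). Replicate 3 of the vehicle at 16 h was also the highest of its group for the interferon response genes Irf7, with 45.8, 48.4 and 64.8 CPM in replicates 1 to 3, and Irf9, with 91.4, 95.9 and 100.5 CPM. Their part in the Ly6a value was not tested. Because Ly6a marks blood progenitors, 6 other progenitor genes, Kit and Cd34 among them, were summed: their level was 65.4 to 72.7 CPM with imiquimod against 134 to 139 CPM with the vehicle at 6 h, and 97.9 to 105 CPM against 161 to 164 CPM at 16 h. Kit held most of each sum. Of the 6 genes 4 were tested, with 3 lower and none higher at 6 h, and 3 lower and 1 higher at 16 h. Among all tested genes 39.2% were lower and 37.7% higher at 6 h, and 38.1% lower and 39.1% higher at 16 h. The sum of 8 T and NK cell markers was 2153 to 2284 CPM with imiquimod against 230.0 to 240.3 CPM with the vehicle at 6 h, and 1176 to 1218 CPM against 303 to 318 CPM at 16 h. Cd8a held most of it with imiquimod, at a mean of 1818 CPM at 6 h, while Cd3e and Cd3d, of the T cell receptor complex, each had at most 5 counts summed over the 3 libraries of any of these groups. The part of progenitors and of T and NK cells in the Ly6a levels was not tested.

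Ly6d, a marker of B cell and pDC progenitors, was higher with imiquimod at both times. Its level was 570.3, 592 and 587 CPM with imiquimod and 162, 175 and 180.15 CPM with the vehicle at 6 h. At 16 h it was 609, 592 and 588 CPM with imiquimod and 156, 147 and 152 CPM with the vehicle. The groups did not overlap, and the 6 imiquimod libraries of both times spanned a narrow band. It rose by 1.76 on the log2 scale (SE 0.0361, edgeR adjusted p = 2.91e-57) at 6 h and by 1.98 (SE 0.0367, edgeR adjusted p = 4.41e-60) at 16 h. These effects differed by 0.22 (SE 0.0513, edgeR adjusted p = 0.000164), while the imiquimod libraries themselves differed by 0.03 between 16 h and 6 h, which was not called (SE 0.0331, edgeR adjusted p = 0.412). When libraries were scaled by their totals instead of by TMM, that difference was 0.33 and called.

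Of 9 B cell markers 7 were tested, and beside Ly6d 2 of them were higher and 5 lower with imiquimod at each time. Among all tested genes 37.7% were higher and 39.2% lower at 6 h, and 39.1% higher and 38.1% lower at 16 h. The summed level of the 9 markers was 181 to 195 CPM with imiquimod against 128 to 140 CPM with the vehicle at 6 h. At 16 h it was 222 to 237 CPM against 138 to 169 CPM. Pax5, the transcription factor of B cell identity, made up most of the imiquimod sum, with a mean of 112 CPM with imiquimod and 18.9 CPM with the vehicle at 6 h. Cd79a, a chain of the B cell receptor, averaged 4.43 CPM with imiquimod and 11.97 CPM with the vehicle at 6 h. Their part in the Ly6d result was not tested.

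Ly6e, which encodes a broadly expressed antigen first described on thymocytes and able to block the entry of coronaviruses, was already well expressed without imiquimod and rose most at 6 h. With imiquimod it had 1480.2, 1550.0 and 1567 CPM at 6 h, against 700.4, 764 and 776 CPM with the vehicle. At 16 h it had 926, 875 and 894 CPM with imiquimod, against 731, 701 and 734 CPM with the vehicle. The groups were apart at both times, by less at 16 h. The log2 fold change was 1.04 at 6 h (SE 0.0331, edgeR adjusted p = 8.36e-44) and 0.32 at 16 h (SE 0.0332, edgeR adjusted p = 4.9e-14), and the 2 effects differed by -0.72 (SE 0.0468, edgeR adjusted p = 1.22e-23). Against the vehicle at 0 h, which had 807, 779 and 794 CPM, the imiquimod cells of 16 h were higher by 0.18 on the log2 scale (SE 0.0331, edgeR adjusted p = 1.38e-06), a contrast chosen with the data already seen.

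Ly6i, a close relative and neighbour of Ly6a, was scarce at 0 h and highest with imiquimod at 6 h. Imiquimod libraries held 144, 119 and 144 counts at 6 h, which is 14.1, 11.5 and 14.1 CPM, against 10, 11 and 23 counts, or 0.778, 0.848 and 1.89 CPM, with the vehicle. At 16 h the imiquimod libraries held 70, 60 and 69 counts, or 5.12, 4.51 and 5.53 CPM, and the vehicle libraries 15, 19 and 23, or 1.38, 1.68 and 2.00 CPM. Every imiquimod library lay above every vehicle library at its time, and the levels at 6 h lay above those at 16 h. It rose by 3.50 on the log2 scale (SE 0.202, edgeR adjusted p = 1.34e-26) at 6 h and by 1.57 (SE 0.226, edgeR adjusted p = 3.47e-09) at 16 h, a difference of -1.94 (SE 0.352, edgeR adjusted p = 2.08e-06).

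Ly6k, needed in mice for sperm to pass into the oviduct and otherwise little expressed outside the testis, was detected at a few counts. It had 5, 8 and 10 counts with imiquimod and 1, 0 and 2 with the vehicle at 6 h, and 16, 22 and 14 counts with imiquimod and 2, 1 and 2 with the vehicle at 16 h. The groups did not overlap at either time, though the numbers are small. The ratio of summed counts, corrected for library size, was 9.49 at 6 h (exact 95% interval 2.87 to 49.4) and 8.87 at 16 h (3.57 to 28.4); these intervals cover counting error only. The edgeR adjusted p was 6.3e-05 at 6 h and 5.07e-07 at 16 h. Only the imiquimod libraries of 16 h carried Ly6k past the filter, so its 16 h ratio and p-value are no independent support. The antisense gene Gm17189 covers the whole of Ly6k, and it had 0 counts in these libraries.

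**Figure D2:**
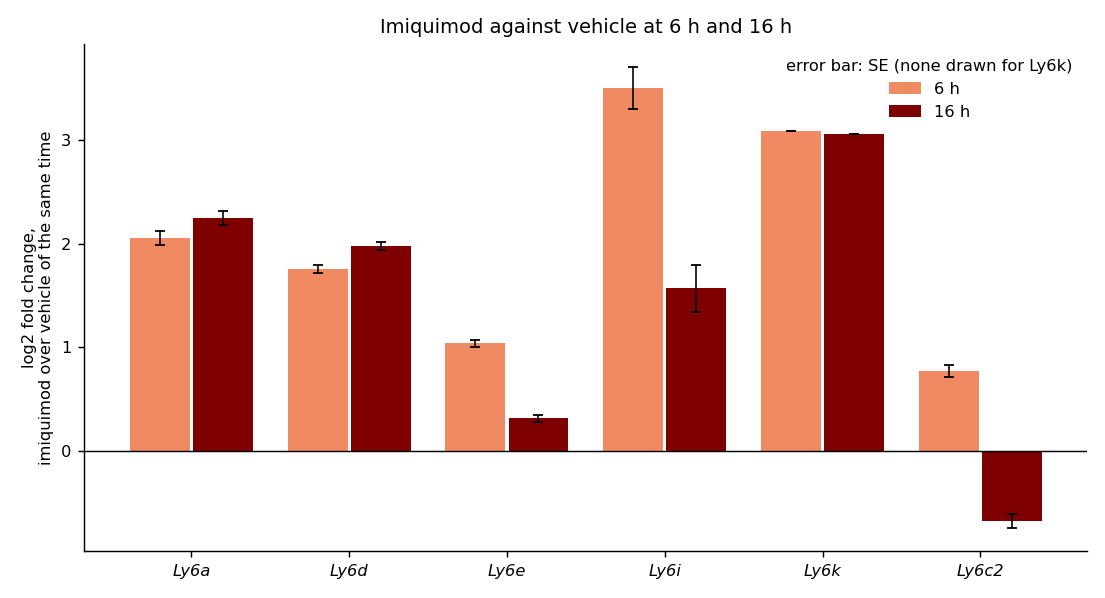
Log2 fold change of imiquimod over the vehicle of the same time for the 6 tested Ly6 genes, at 6 h (light) and 16 h (dark), with SE bars. No SE is drawn for Ly6k, whose counts are too few for it. The bars of Ly6a and Ly6d are slightly taller at 16 h, those of Ly6e and Ly6i are shorter, and those of Ly6c2 are 0.77 at 6 h and -0.68 at 16 h.

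Ly6c1 and Ly6c2 encode the near-identical antigens that antibodies to Ly6C detect. Their coding sequences are 393 bases each and match at 384 positions (97.7%), with 9 mismatches. The first 150 coding bases are shown because 6 of the 9 differences lie there, and such bases are what lets a read be assigned to either gene. Both stretches are from the minus strand of GRCm38 chromosome 15, at chr15:75110548-75111667 for Ly6c2 and chr15:75047390-75048511 for Ly6c1 (introns included in the coordinates), and capitals mark the bases that differ.
Ly6c2: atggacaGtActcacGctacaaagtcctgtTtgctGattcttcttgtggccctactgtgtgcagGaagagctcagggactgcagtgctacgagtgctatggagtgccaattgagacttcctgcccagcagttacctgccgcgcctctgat
Ly6c1: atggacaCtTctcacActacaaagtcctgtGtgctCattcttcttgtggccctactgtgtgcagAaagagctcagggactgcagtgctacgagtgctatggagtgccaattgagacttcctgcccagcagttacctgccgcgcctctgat
Before the start of transcription the 2 genes are less alike. Within the 250 bases before each RefSeq start (GRCm38.p6), the best local alignment covers chr15:75111998-75112221 of Ly6c2 and chr15:75048839-75049056 of Ly6c1, both minus strand. Of its 227 columns 164 (72.2%) are identical, 51 are mismatched and 12 are gapped, and capitals mark the mismatched and gapped bases. They are shown because the level of one gene was far above that of the other. Whether these bases have a part in the levels was not tested.
Ly6c2: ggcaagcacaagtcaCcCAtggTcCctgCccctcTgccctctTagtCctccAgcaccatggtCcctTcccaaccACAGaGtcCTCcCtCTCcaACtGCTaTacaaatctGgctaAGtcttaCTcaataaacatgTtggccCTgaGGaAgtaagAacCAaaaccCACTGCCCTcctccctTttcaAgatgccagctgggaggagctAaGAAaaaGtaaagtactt
Ly6c1: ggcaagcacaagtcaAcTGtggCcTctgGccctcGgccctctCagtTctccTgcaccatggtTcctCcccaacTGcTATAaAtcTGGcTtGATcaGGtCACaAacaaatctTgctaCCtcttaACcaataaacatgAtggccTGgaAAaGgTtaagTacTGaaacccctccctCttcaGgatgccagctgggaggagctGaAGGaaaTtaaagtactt

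Nearly all Ly6C counts were from Ly6c2. Over the 18 libraries Ly6c2 had 13506 counts and Ly6c1 had 23, or 0.17% of both together, and no library had more than 5 Ly6c1 counts. Of all 75-base windows in their transcripts, 9.46% of those of Ly6c2 and 19.0% of those of Ly6c1 also occur in another gene, so reads from those windows could be credited to either; for Ly6a the share was 6.33% and for Ly6i 0.519%, and how such reads were handled is not given in the sources used here. Ly6c1 had 8 counts with imiquimod and 3 with the vehicle at 6 h, a ratio of 3.30 with an exact 95% interval of 0.792 to 19.3, and 3 and 5 counts at 16 h, a ratio of 0.512 with an interval of 0.0794 to 2.63. No difference was detectable for Ly6c1 at this depth.

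Ly6c2 was the one Ly6 gene with opposite calls at the 2 times. At 6 h it had 82.4, 84.9 and 86.4 CPM with imiquimod, against 49.8, 45.3 and 54.0 CPM with the vehicle. At 16 h it had 38.2, 36.1 and 30.4 CPM with imiquimod, against 54.6, 53.4 and 59.9 CPM with the vehicle. The groups were apart at both times, with imiquimod above at 6 h and below at 16 h. The log2 fold change was 0.77 at 6 h (SE 0.0589, edgeR adjusted p = 8.55e-19) and -0.68 at 16 h (SE 0.0649, edgeR adjusted p = 9.07e-15), a difference of -1.45 (SE 0.0876, edgeR adjusted p = 5.91e-23).

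The levels at 0 h place these values. Ly6c2 had 85.3, 79.4 and 77.9 CPM in the vehicle libraries at 0 h and 75.7, 81.2 and 76.3 CPM in untreated cells. The vehicle libraries were lower by 6 h, with a log2 difference of -0.70 against the vehicle at 0 h (SE 0.0579, edgeR adjusted p = 1.07e-16), and at 16 h, with -0.53 (SE 0.0579, edgeR adjusted p = 3.16e-12). With imiquimod at 6 h, Ly6c2 differed from the vehicle at 0 h by 0.06 on the log2 scale (SE 0.0553), which was not called (edgeR adjusted p = 0.293). Scaled by library totals, that last difference was -0.30 and called lower (edgeR adjusted p = 2.91e-06). At 16 h the imiquimod libraries lay below the vehicle at 0 h by either scaling, with a TMM-scaled log2 difference of -1.21 (SE 0.0608, edgeR adjusted p = 1.07e-27). The 2 comparisons of imiquimod with the vehicle at 0 h were added after the data were seen.

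Monocytes also carry Ly6C, and 8 monocyte and macrophage markers were summed beside it. The sum was 167 to 172 CPM with imiquimod against 1573 to 1707 CPM with the vehicle at 6 h, and 69.4 to 77.8 CPM against 1987 to 2066 CPM at 16 h. With the vehicle most of it was the chemokine receptor gene Ccr2, which pDCs also express, at a mean of 71.1 CPM with imiquimod and 1323 CPM with the vehicle at 6 h. Of the 8, 7 were tested, and at both times 5 of these were lower with imiquimod. Cd14, a co-receptor for bacterial lipopolysaccharide, and the Fc receptor gene Fcgr1 were higher. Among all tested genes 39.2% were lower and 37.7% higher at 6 h, and 38.1% lower and 39.1% higher at 16 h. At 6 h the monocyte sum and Ly6c2 moved in opposite directions, and at 16 h they moved in the same one. The part of such cells in the Ly6c2 levels was not tested.

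**Figure D3:**
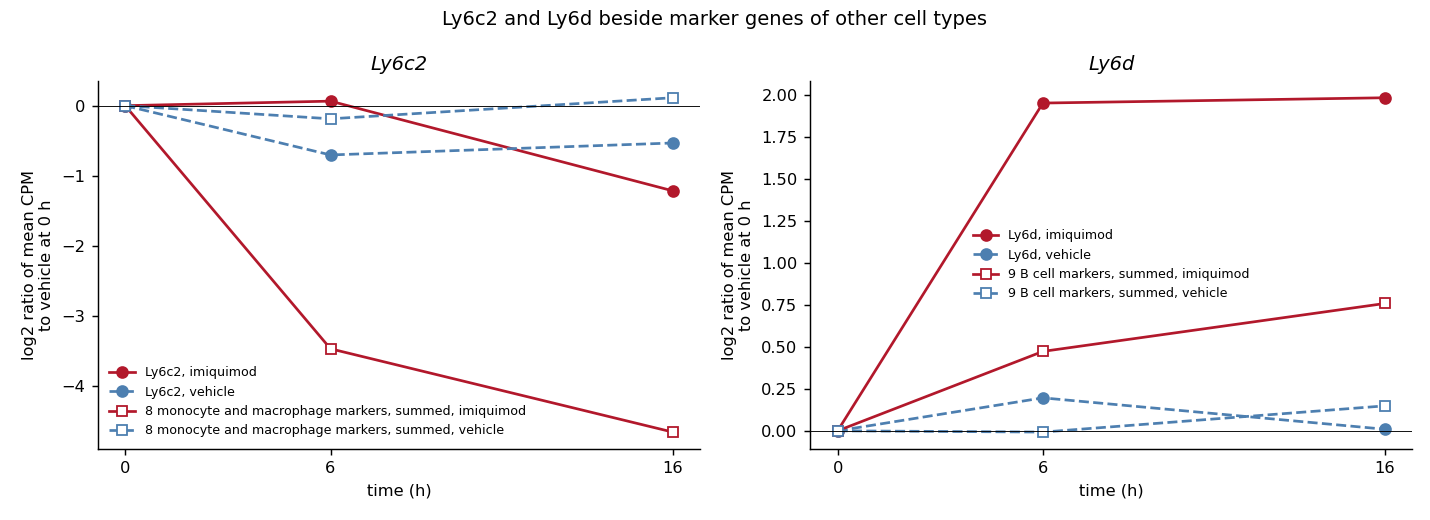
Group means relative to the vehicle at 0 h (log2 ratio of mean CPM, linear in time) for Ly6c2 beside 8 summed monocyte and macrophage markers, and for Ly6d beside 9 summed B cell markers, with imiquimod in red and the vehicle in blue. With imiquimod, Ly6c2 is near its 0 h level at 6 h while the monocyte sum is far below, and Ly6d is further above its 0 h level than the B cell sum.

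The Ly6 genes also differed in what culture with the vehicle alone did. Between the vehicle and untreated cells at 0 h no gene was called in edgeR (0% of tested genes, with 708 genes at an unadjusted p under 0.05), nor in DESeq2, so the Ly6 genes had no call there. Ly6a had 189, 185 and 182 CPM with the vehicle at 0 h and 182, 189 and 191 CPM in untreated cells. Ly6d had 154, 146 and 152 CPM with the vehicle at 0 h and 157, 156 and 144 CPM in untreated cells. Ly6e had 807, 779 and 794 CPM with the vehicle at 0 h and 825, 827 and 796 CPM in untreated cells. For each of these genes the 2 groups overlapped. Between the vehicle at 6 h and at 0 h, Ly6d was higher and Ly6a, Ly6c2 and Ly6e were lower, against 26% of tested genes called higher and 26.9% lower. Ly6a had 126, 141 and 153 CPM in the vehicle at 6 h, against 189, 185 and 182 CPM at 0 h, with no overlap and a log2 difference of -0.40 (SE 0.0707, edgeR adjusted p = 0.000174). Ly6d changed by 0.20 (SE 0.0388, edgeR adjusted p = 1.3e-05). Ly6e changed by -0.09 (SE 0.0332, edgeR adjusted p = 0.0216), a call that was lost in 5 alternatives. Among these were the fits without replicate 1 of the vehicle at 6 h (-0.03, edgeR adjusted p = 0.399) and without replicate 1 (-0.07, edgeR adjusted p = 0.141) or replicate 3 (-0.08, edgeR adjusted p = 0.094) of the vehicle at 0 h.

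Between the vehicle at 16 h and at 0 h, Ly6c2 and Ly6e were lower and no Ly6 gene was higher, against 30% and 28.4% of tested genes. For Ly6e the log2 difference was -0.14 (SE 0.0334, edgeR adjusted p = 0.000297). The log2 difference of Ly6a was -0.15 and was not called (SE 0.0703, edgeR adjusted p = 0.0882), but it was called with no expression filter (-0.14, edgeR adjusted p = 0.000941), with library totals (-0.20, edgeR adjusted p = 0.0165), with the replicate block (-0.15, edgeR adjusted p = 0.0486) and without replicate 3 of the vehicle at 16 h (-0.24, edgeR adjusted p = 4.55e-05). Imiquimod against the vehicle at 0 h gave 5 of the 6 tested Ly6 genes higher and none lower at 6 h, where 36.7% of tested genes were higher and 38.7% lower. Of these calls that of Ly6k (1.43, edgeR adjusted p = 0.0153) was lost in 3 alternatives. Among these were the fits without replicate 1 of the vehicle at 0 h (1.15, edgeR adjusted p = 0.0791) or replicate 3 of imiquimod at 6 h (1.21, edgeR adjusted p = 0.084). At 16 h it gave 5 higher and 1 lower, where 38.8% were higher and 36.8% lower. The 5 include Ly6k, which entered the test only through these imiquimod libraries. These comparisons share the vehicle libraries of 0 h, and those of imiquimod share its libraries with the comparisons above.

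The difference between the imiquimod effects at 16 h and at 6 h was called for 4 of the 6 Ly6 genes: it was positive for Ly6d and negative for Ly6c2, Ly6e and Ly6i. Of all tested genes 28.5% had a positive difference and 28.4% a negative one. Between the imiquimod libraries of 16 h and 6 h, Ly6a was higher and Ly6c2, Ly6e and Ly6i were lower, against 31.9% of tested genes higher and 31.8% lower. Ly6i changed by -1.39 (SE 0.148, edgeR adjusted p = 2.17e-13), Ly6c2 by -1.27 (SE 0.0618, edgeR adjusted p = 4.12e-28) and Ly6e by -0.77 (SE 0.0329, edgeR adjusted p = 6.56e-35). For Ly6k the difference between the imiquimod effects was -0.02 and was not called (edgeR adjusted p = 0.956). Between its imiquimod libraries of 16 h and 6 h the log2 difference was 0.81, not called (edgeR adjusted p = 0.0601) but called in 3 alternatives.

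Scaling matters for the values at 6 h. With library totals in place of TMM, the median log2 change of all genes between imiquimod and the vehicle at 6 h was -0.39, a shift of -0.35, and 31.1% of calls were higher where TMM gave 49.0%. For the difference between the effects 75.5% of calls were then positive, where TMM gave 50.1%, and between the imiquimod libraries of 16 h and 6 h 74.6% were higher, where TMM gave 50.0%. The direction and the call of the 6 Ly6 genes against the vehicle of the same time were the same with both scalings. With totals, the 6 h log2 fold change was 1.70 for Ly6a, 1.41 for Ly6d, 0.69 for Ly6e and 0.42 for Ly6c2.

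Levels of different genes were set side by side per kb of exon, a quantity that depends on the annotated exons, which for Ly6e and Ly6c2 include retained introns. In the vehicle libraries at 0 h the order was Ly6e (210 CPM per kb), Ly6d (202), Ly6a (154), Ly6c2 (29.5), Ly6i (1.27), Ly6k (0.329) and Ly6c1 (0.0321). The libraries of neighbouring genes in that order did not overlap, except for Ly6e and Ly6d. Untreated cells had the same order and the same overlap. With imiquimod at 6 h Ly6d (784 ± 15.4 CPM per kb, SD, n = 3) stood above Ly6a (482 ± 11.1) and Ly6e (405 ± 12.1), and at 16 h the order was again Ly6d (801 ± 15.2), Ly6a (661 ± 18.8) and Ly6e (237 ± 6.77). In the vehicle libraries of 6 h and 16 h the order began with Ly6d, Ly6e and Ly6a, and only Ly6k and Ly6c1 overlapped.

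As a description over the 18 libraries, which share treatment and time, the log levels of Ly6a and Ly6d had the highest correlation of any 2 tested Ly6 genes (Pearson's r = 0.967). Ly6c2 stood apart, with r between -0.287 with Ly6d and 0.354 with Ly6e. Among 9447 genes with a mean of at least 5 CPM, the profile most like that of Ly6a was that of the class I gene H2-Q4 (r = 0.995), whose reads may be shared with other class I genes. Ly6d was most like Baz1a (r = 0.996), a chromatin remodelling gene, Ly6e most like Actb (r = 0.996), the gene of cytoplasmic beta-actin, and Ly6i most like Dda1 (r = 0.976). Ly6c2 was most like Malt1 (r = 0.972), which encodes a protease of NF-kappaB signalling, and Ly6k most like Stap1 (r = 0.931).

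All 7 genes lie in the Ly6 cluster of chromosome 15 (mm10, GENCODE M21). From one end to the other they are Ly6d (ENSMUSG00000034634.7, chr15:74762056-74763620), Ly6k (ENSMUSG00000044678.11, chr15:74796874-74799986), Ly6e (ENSMUSG00000022587.14, chr15:74955051-74959905), Ly6i (ENSMUSG00000022586.11, chr15:74979534-74983430), Ly6a (ENSMUSG00000075602.10, chr15:74994877-74998031), Ly6c1 (ENSMUSG00000079018.10, chr15:75044018-75048830) and Ly6c2 (ENSMUSG00000022584.14, chr15:75108158-75111970). All are protein-coding, and all but Ly6e are on the minus strand.

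Taken from Psca to Ly6h, the cluster spans 852 kb and holds 49 annotated genes, of which 24 are protein-coding. Of the 49, 20 had no count in any library, and 12 were tested. Of these 12, 10 were higher and 1 was lower with imiquimod at 6 h, and 7 were higher and 3 lower at 16 h, beside 37.7% higher and 39.2% lower, and 39.1% higher and 38.1% lower, of all tested genes. These counts include the 6 Ly6 genes already described, among them Ly6k, which entered the test only through the imiquimod libraries of 16 h. The cluster thus held expressed genes of both directions beside silent ones. Them6, at the Psca end, had log2 fold changes of 0.55 at 6 h (edgeR adjusted p = 1.39e-10) and 0.53 at 16 h (edgeR adjusted p = 2.4e-10). The pseudogene Gm8000, between Ly6i and Ly6a, had 0.96 at 6 h (edgeR adjusted p = 0.0177) and 0.37 at 16 h, which was not called (edgeR adjusted p = 0.424). Its mean was 1.24 CPM with imiquimod at 6 h and 0.45 to 0.73 CPM in the other groups, where the filter lay near 0.833 CPM. It may thus have entered the test through the imiquimod libraries of 6 h. Its call there, among the 10 higher at 6 h, is then no independent count. The noncoding gene Gm39556 had 0.21 at 6 h, which was not called (edgeR adjusted p = 0.494), and -1.27 at 16 h (edgeR adjusted p = 0.000423). Outside the 7 genes, the cluster genes named here were chosen after their values were seen.

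**Figure D4:**
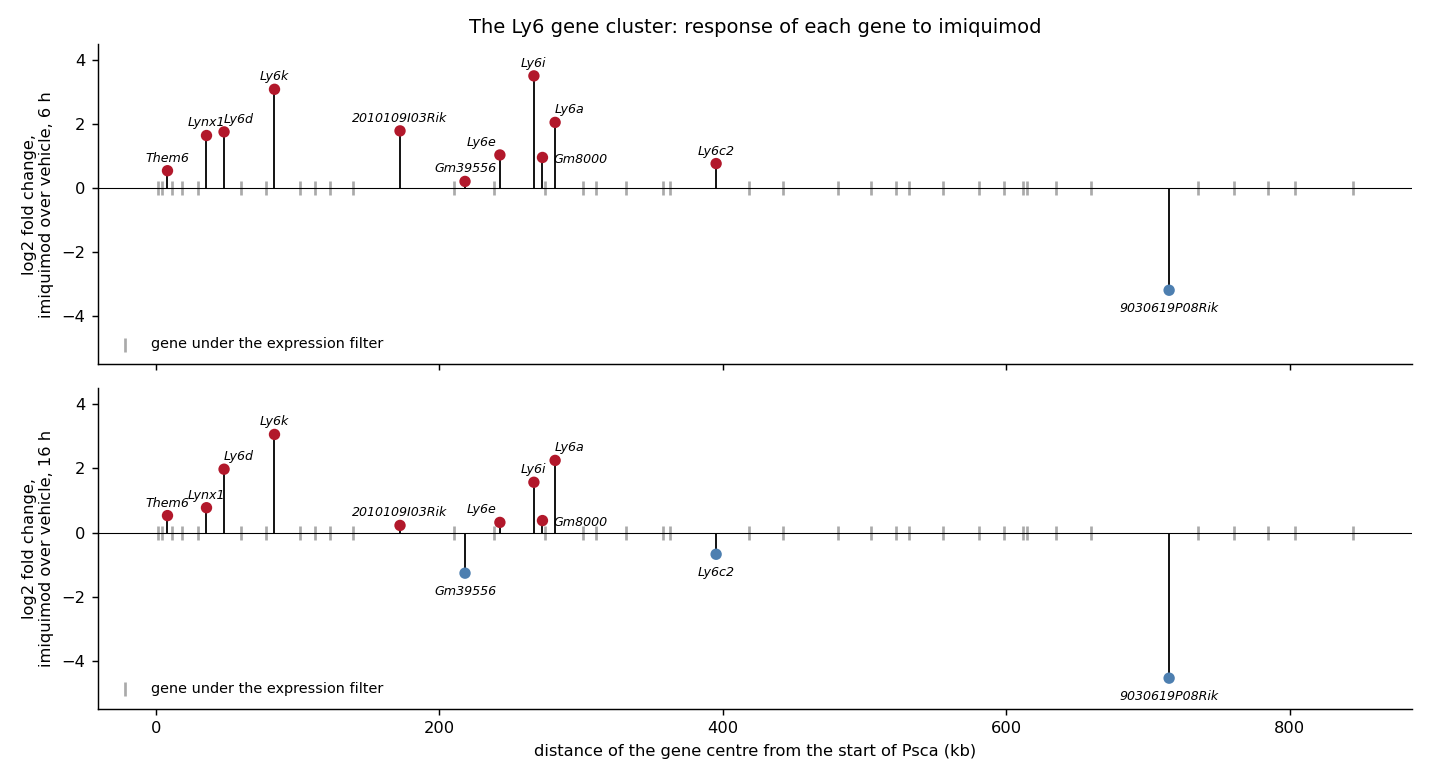
Log2 fold change of imiquimod over the vehicle at 6 h (top) and 16 h (bottom) for each tested gene of the cluster, by the distance of its centre from the start of Psca in kb; grey ticks are genes under the expression filter. Ly6i, Ly6k and Ly6a have the highest stems at 6 h. The gene 9030619P08Rik, whose start lies 713 kb from that of Psca, has the lowest at both times.

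A further 40 symbols of the Ly6/uPAR family were listed. Among them Ly6m, Ly6a2 and Ly6g2 of RefSeq overlap 2010109I03Rik, I830127L07Rik and BC025446, and only the latter symbols had rows of counts. Of the 40 symbols, 34 were in the table. Of these 14 had no count in any library and 15 more had at most 3 in a library, Ly6g, the neutrophil antigen gene, with 2 counts in all. The sum of 9 neutrophil markers was 1.36 to 3.04 CPM with imiquimod against 1.23 to 1.64 CPM with the vehicle at 6 h, and 6.65 to 7.59 CPM against 0.783 to 2.57 CPM at 16 h. Csf3r, the receptor gene for granulocyte colony-stimulating factor, made up 7.08 CPM of the mean sum of 7.26 CPM with imiquimod at 16 h, where 4 of the 9 markers were at 0. The other 5 family genes were tested. With imiquimod 4 were higher and 1 lower at 6 h, and 3 higher, 1 lower and 1 not called at 16 h. Of all tested genes 37.7% were higher and 39.2% lower at 6 h, and 39.1% higher and 38.1% lower at 16 h. Plaur, the receptor of urokinase on migrating cells, had 301, 320 and 319 CPM with imiquimod and 39.0, 47.8 and 42.6 CPM with the vehicle at 6 h, and 117, 107 and 119 CPM with imiquimod and 54.3, 57.7 and 54.4 CPM with the vehicle at 16 h. Its libraries were apart at both times and the rise was larger at 6 h. The log2 fold changes were 2.86 (SE 0.0487, edgeR adjusted p = 5.33e-59) and 1.04 (SE 0.0512, edgeR adjusted p = 5.25e-30), with a difference of -1.82 (SE 0.0727, edgeR adjusted p = 2.49e-34).

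Lynx1, whose product binds nicotinic acetylcholine receptors in neurons, was also higher at both times, with log2 fold changes of 1.64 at 6 h (SE 0.0463, edgeR adjusted p = 1.19e-47) and 0.77 at 16 h (SE 0.048, edgeR adjusted p = 1.85e-25). Ly6g5b, in the major histocompatibility region, was higher at both times too, by more at 16 h. It had 24, 27 and 18 counts with imiquimod and 10, 4 and 13 with the vehicle at 6 h, and 104, 82 and 106 counts with imiquimod and 7, 12 and 11 with the vehicle at 16 h. At 6 h the log2 fold change reached 1.65 (SE 0.327, edgeR adjusted p = 6.05e-06) and 3.04 at 16 h (SE 0.24, edgeR adjusted p = 8.92e-20). The difference of 1.39 (edgeR adjusted p = 0.00757) was 1.03 and not called without replicate 3 of the vehicle at 6 h (edgeR adjusted p = 0.11). The gene 2010109I03Rik, named Ly6m in RefSeq, had 16, 29 and 34 counts with imiquimod and 9, 7 and 12 with the vehicle at 6 h, and 14, 12 and 11 counts against 8, 8 and 11 at 16 h. It was called at 6 h (log2 fold change 1.79, edgeR adjusted p = 6.08e-07) and not at 16 h (0.22, edgeR adjusted p = 0.602).

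The transcribed pseudogene 9030619P08Rik was the one tested family gene that fell at both times. It had 9, 4 and 3 counts with imiquimod and 50, 54 and 79 with the vehicle at 6 h, and 2, 3 and 4 counts with imiquimod and 60, 58 and 69 with the vehicle at 16 h. The log2 fold change was -3.18 at 6 h (edgeR adjusted p = 8.48e-16) and -4.54 at 16 h (edgeR adjusted p = 1.25e-21).

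**Figure D5:**
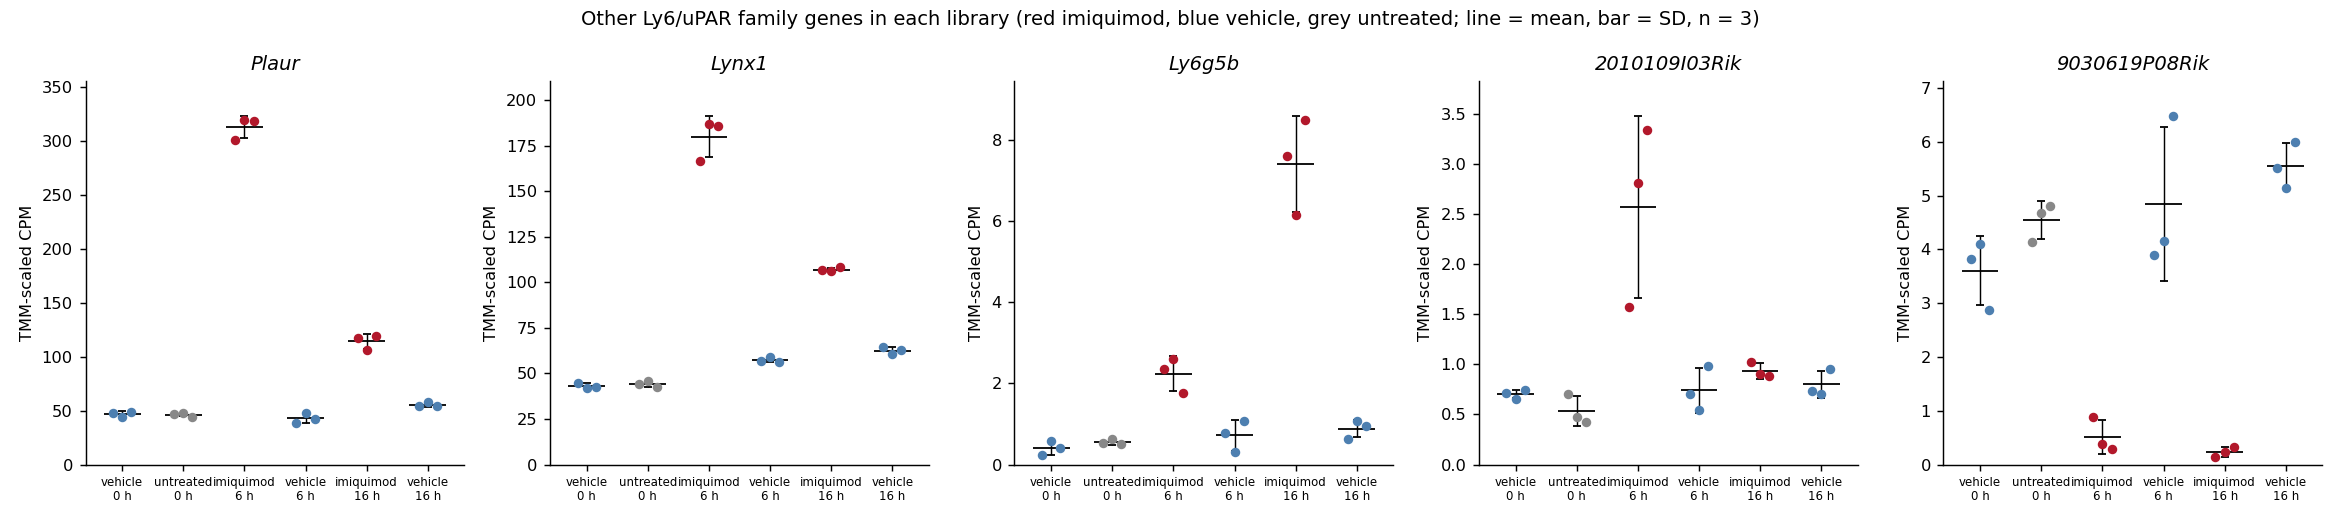
Level of the 5 other tested Ly6/uPAR family genes in each library, in TMM-scaled CPM from 0, with the mean and SD of 3 libraries a group. Plaur, Lynx1 and 2010109I03Rik peak with imiquimod at 6 h, Ly6g5b peaks with imiquimod at 16 h, and 9030619P08Rik is lowest in the imiquimod groups.

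Since most Ly6 proteins need a GPI anchor, 30 genes that build, attach and remodel it were listed, and 28 were tested. With imiquimod 7 were higher and 15 lower at 6 h, with a median log2 fold change of -0.40, and 14 were higher and 10 lower at 16 h, with a median of 0.09. Of all tested genes 37.7% were higher and 39.2% lower at 6 h, and 39.1% higher and 38.1% lower at 16 h. The genes named here are those of the highest and lowest changes, so they differ in direction by choice. Pgap1, which removes an acyl chain from the anchor after it is attached, had 4.12, 3.10 and 2.95 CPM with imiquimod and 43.2, 42.0 and 41.6 CPM with the vehicle at 6 h. The log2 fold change of Pgap1 was -3.64 at 6 h (SE 0.108, edgeR adjusted p = 5.2e-46) and -3.64 at 16 h (SE 0.107, edgeR adjusted p = 2.73e-46). Pgap2, which acts in the remodelling of the anchor's lipid, was higher, with log2 fold changes of 1.96 at 6 h (SE 0.0632, edgeR adjusted p = 1.07e-42) and 1.57 at 16 h (SE 0.0641, edgeR adjusted p = 6.7e-36). Piga, in the enzyme of the first step, was higher by 0.52 at 6 h (edgeR adjusted p = 3.97e-07), a call lost with scaling by library totals (0.17, edgeR adjusted p = 0.0749), and by 0.81 at 16 h (edgeR adjusted p = 4.48e-12).

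The mannosyltransferase gene Pigb was lower at 6 h, with a log2 fold change of -1.35 (SE 0.111, edgeR adjusted p = 9.92e-19). At 16 h it was 0.19, just inside the threshold (SE 0.0876, edgeR adjusted p = 0.0485). That call was lost without imiquimod replicate 1 (0.19, edgeR adjusted p = 0.0721) or 2 (0.13, edgeR adjusted p = 0.219) and without vehicle replicate 1 (0.19, edgeR adjusted p = 0.0707) or 3 (0.15, edgeR adjusted p = 0.168) of 16 h, and with DESeq2 (0.18, adjusted p = 0.118). Mppe1, which removes an ethanolamine phosphate from the anchor, was lower, with log2 fold changes of -1.04 at 6 h (SE 0.0818, edgeR adjusted p = 8.84e-20) and -0.87 at 16 h (SE 0.0786, edgeR adjusted p = 6.52e-17). Pigw, an acyltransferase of anchor synthesis, was higher by 0.51 at 6 h (edgeR adjusted p = 0.000231), not called with library totals (0.16, edgeR adjusted p = 0.24), and by 1.16 at 16 h (edgeR adjusted p = 3.42e-16).

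Of 12 genes of interferon signalling, which induces several Ly6 genes, 10 were higher and 2 lower with imiquimod at 6 h, and 8 were higher and 4 lower at 16 h, beside 37.7% higher and 39.2% lower, and 39.1% higher and 38.1% lower, of all tested genes. The median log2 fold change was 1.06 at 6 h and 0.23 at 16 h. Irf7, the transcription factor that pDCs use to make interferon, had 1222, 1293 and 1305 CPM with imiquimod and 37.3, 38.6 and 41.3 CPM with the vehicle at 6 h, and 546, 509.6 and 577 CPM with imiquimod and 45.8, 48.4 and 64.8 CPM with the vehicle at 16 h. The gene rose by 5.03 on the log2 scale (SE 0.094, edgeR adjusted p = 1.65e-15) at 6 h and by 3.36 (SE 0.0918, edgeR adjusted p = 1.61e-13) at 16 h. Stat2 and Irf9, which carry the signal of the interferon receptor to the nucleus, were also higher at both times, and the difference between the 2 effects was called negative for 11 of the 12 genes, beside 28.4% of all tested genes. Among the Ly6 genes a negative difference was called for Ly6c2, Ly6e and Ly6i and a positive one for Ly6d. Ifngr1, a chain of the interferon gamma receptor, had a log2 fold change of -2.55 at 6 h (SE 0.0578, edgeR adjusted p = 3.12e-54) and -2.33 at 16 h (SE 0.0556, edgeR adjusted p = 1.56e-52).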

How the data were processed

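RNA-seq of 18 libraries in 6 groups of 3 was analysed from the count table that the authors deposited, which gives unnormalised whole-number counts for each gene. Per the submitters' processing notes, reads were aligned with STAR to mm10. The version of the aligner, the counting program, its strand setting, the annotation and the handling of reads with several matches are not given in the sources used here. Per the labels' protocols, libraries were rRNA-depleted, directional and sequenced as paired reads of 75 bases.

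Genes were kept by edgeR's filterByExpr (minimum count 10), scaled by TMM and fitted in edgeR 4.0.16 (R 4.3.3) with all 6 groups, robust dispersions and no covariate; adjusted p-values are Benjamini-Hochberg over the 14876 genes tested. SE was taken from the F statistic, as the size of the log2 fold change over the root of F, and is too small for genes of few counts. The comparisons were imiquimod with the vehicle at 6 h and at 16 h, the difference of these effects, the vehicle at 0 h with untreated cells, later vehicle with the vehicle at 0 h, imiquimod at 16 h with 6 h, and, added after the data were seen, imiquimod with the vehicle at 0 h. The members and gene lists were chosen with earlier results of these data known. Named genes were all members, the tested genes of the other family list, the 2 called genes of the GPI list with the highest and the 2 with the lowest fold change at each time, up to 6 interferon genes by the size of their change at 6 h (1 of these is not reported here), and the 3 profiles most like each member, of which the first is given. Gene models, pseudogenes and small RNAs were left out of those profiles. The scripts were tested on simulated counts. Alternatives were no expression filter, a 1 CPM filter, DESeq2 size factors, library totals, DESeq2 1.42.0, a replicate block, Ly6c1 and Ly6c2 counted as 1 gene, a fit of the compared groups alone and leaving out each library. Of the table's identifiers, 97.8% were found in GENCODE M21, the source of positions and exon lengths. Promoters are from RefSeq, which matched 2 of the 7 genes in the table used. Ratios of few counts carry exact 95% intervals. No library pair of the same group agreed within sampling noise. The chi-square of counts per degree of freedom was 9.60, 3.95 and 3.91 for the pairs of the vehicle at 6 h. In the other groups it ran from 1.30 to 3.89.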

Additional observations from a re-analysis of the deposited data

Results flagged for a closer look

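The genes considered were the 6 tested Ly6 genes and 16 other named genes. For 16 of all these the imiquimod effect differed between the times, by the test of the difference itself in edgeR's fit. Values are 16 h minus 6 h on the log2 scale. Such a difference was called positive for 28.5% and negative for 28.4% of all tested genes. Among the Ly6 genes the difference was -1.45 for Ly6c2, whose direction turned, 0.22 for Ly6d, -0.72 for Ly6e and -1.94 for Ly6i. Among other family genes it was -1.82 for Plaur, -0.87 for Lynx1, 1.39 for Ly6g5b and -1.57 for 2010109I03Rik. In GPI anchor synthesis it was 1.53 for Pigb, -0.40 for Pgap2 and 0.65 for Pigw. In interferon signalling it was -1.67 for Irf7, 0.22 for Ifngr1, -1.14 for Stat2, -1.46 for Jak2 and -0.63 for Irf9.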

How the results depend on the processing

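The 7 Ly6 genes were refitted in 901 alternatives over 9 comparisons. For Ly6c1, given from a fit with no filter, the no-filter alternative was the same fit and could not differ. Any value without an adjusted p was counted as keeping its side. Of the 901, 880 kept their side of the threshold, among them 28 uncalled values that changed sign. In 8 a called value lost the call, and in 12 an uncalled value gained one. In the remaining alternative, scaling by library totals, Ly6c2 with imiquimod at 6 h against the vehicle at 0 h went from 0.06, not called, to -0.30, called lower. That scaling also shifts the median of all genes there by -0.36. No called value changed direction. Of the 420 in which 1 library was left out, 411 kept their side of the threshold, 5 lost the call and 4 gained it. The count of genes called between the vehicle and untreated cells at 0 h was 0, and became 5 with no expression filter, 1 with DESeq2 size factors, 1 with library totals and 4 in a fit of those groups alone, and ranged from 0 to 7 without single libraries; the cause was not tested. For 16 other named genes, 692 of 720 alternatives kept their side of the threshold, 18 lost the call and 10 gained it. Ifngr1's difference between the effects (0.22) lost its call with DESeq2 (0.19) and without any of 3 single libraries. The replicate numbers do not pair the libraries, judged by the deviations of each library's log levels from its group mean. Between compared groups, the deviations of same-numbered libraries correlated between -0.073 and 0.028. By the mean of such correlations, 5 of 18 libraries were most like those of their own number in other groups. With the replicate block, Ly6a between the vehicle at 16 h and 0 h became called (-0.15, edgeR adjusted p = 0.0486), and no other call on the Ly6 genes changed. Counts limit Ly6k and Ly6c1 most, since few reads fell on them in each library.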
